A study of Mus musculus with 6 samples.

Results

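miR-21 is listed in the mouse count table under 4 names, the miR-21a arms mmu-miR-21a-5p and mmu-miR-21a-3p and the look-alike miRNAs mmu-miR-21b and mmu-miR-21c (written below without the species prefix), and these 4 rows were taken by name from the 1982 rows of the table. The counts come from exosomes, small vesicles released by cells, that were pelleted from serum. The donors were 6 male C57BL/6 mice, all 3 months old. In the 3 Acu/LFES mice (ACU-LFES in the labels), low-frequency electrical stimulation was given once to the hindlimb for 30 min through acupuncture needles. The 3 sham mice (Control in the labels) were needled near those points and wired up, but the current stayed off. The labels give both groups the same strain, sex and age. Whether the mice sequenced here were also given puromycin, a label of new protein used in the study's muscle assays, is not given in the sources used here. All libraries were run in a single lane, 1 library per mouse, and the sources used here do not give the time between the stimulation and the serum draw.

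A miRNA gene is transcribed as a hairpin from which a duplex of about the length of a mature miRNA is cut. One strand, the guide, is kept by an Argonaute protein, and the other, the passenger, is usually degraded. The guide finds mRNAs mainly through its seed, the bases 2 to 8 from its 5′ end, so that miRNAs of different seed are expected to bind different mRNAs. miR-21a-5p is the guide of its hairpin. It is abundant in many tissues and in blood, it is induced by inflammatory and injury signals, and the mRNA of Pdcd4, which encodes an inhibitor of translation, is among its known targets.

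The mature sequences of all 4 rows were found in RefSeq (GRCm38.p6). They are shown 5′ to 3′ with the seed in capitals, because the seed and the 3′ ends are where the look-alike rows depart from miR-21a-5p.
miR-21a-5p: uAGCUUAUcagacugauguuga
miR-21b: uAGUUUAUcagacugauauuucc
miR-21c: uAGCUUAUcagacugguacaa
miR-21a-3p: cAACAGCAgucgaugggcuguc
Compared base by base without gaps from the 5′ end, miR-21b was identical to miR-21a-5p at 18 of 22 positions. Its substitutions, counted from 1 at the 5′ end with the base of miR-21a-5p first, were C4U, G18A, G21U and A22C, and it is 1 base longer. C4U lies in the seed, so miR-21b does not share the seed of miR-21a-5p. The longest stretch common to both runs from base 5 to base 17. miR-21c was identical at 16 of 21 positions and differed by A16G, G18A, U19C, U20A and G21A, all of them outside the seed. Its first 15 bases are those of miR-21a-5p, so a read that ends there fits both rows. The seed AGCUUAU was found in miR-21a-5p and miR-21c alone among the mature mouse miRNAs of the RefSeq table, whereas the seeds of miR-21b and miR-21a-3p were each found in that miRNA alone.

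The 3 hairpins lie on different chromosomes of GRCm38. Mir21a, which gives both miR-21a arms, lies on chromosome 11 from 86584067 to 86584158 on the minus strand, with miR-21a-5p at chr11:86584120-86584141 and miR-21a-3p at chr11:86584082-86584103. In GENCODE M21 this is within exon 12 and the 3′-UTR of Vmp1, a membrane protein of autophagy that is transcribed from the same strand. Mir21b lies on chromosome 3 from 29636744 to 29636851 on the plus strand, in an intron of Egfem1, with miR-21b at chr3:29636768-29636790. Mir21c lies on chromosome 8 from 128278148 to 128278225 on the minus strand and overlaps no other annotated gene, with miR-21c at chr8:128278188-128278208.

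The libraries held between 391708 and 1504137 counts. The red-cell miRNAs miR-486a-5p and miR-486b-5p, listed with identical counts, took between 61.7% and 74.0% of the counts in 5 mice and 29.2% in Acu/LFES mouse 6. Whether the same reads were counted in full in both rows is not given in the sources used here. These percentages, and every share of all counts below, are therefore shares of counts and may differ from shares of reads. A level scaled by the total therefore moves with miR-486, and 3 other scales are given beside it: counts outside these miR-486 rows, TMM-normalised CPM (counts per 1000000 counts, with the library size adjusted by edgeR so that most miRNAs stay level) and ratios to a reference miRNA. Markers of the cells that feed serum were present, with the liver miRNA miR-122-5p at 2829 to 16779 counts and the muscle miRNA miR-133a-3p at 1916 to 8860 counts.

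miR-21a-5p was one of the most counted miRNAs of the serum exosomes and was not shown to differ between sham and Acu/LFES mice. It had 5297, 4473 and 2632 counts in sham mice 1, 2 and 3, and 29061, 3660 and 11771 counts in Acu/LFES mice 4, 5 and 6. It ranked 14, 12 and 13 among the miRNAs of the sham libraries and 6, 11 and 10 among those of the Acu/LFES libraries. In normalised CPM it was 7636, 10434 and 8697 in sham animals, against 17393, 7610 and 10742 after Acu/LFES. Mouse 4 was well above all others, mouse 6 was just above the highest sham mouse, and mouse 5 was the lowest of the 6, so the groups overlapped. The sham mean was 8923 ± 1413 normalised CPM, and the Acu/LFES mean was 11915 ± 4996 (SD, n = 3 for both). The log2 fold change was 0.42 with a standard error of 0.32 (adjusted p = 0.786, unadjusted p = 0.220, quasi-likelihood test of edgeR, Benjamini-Hochberg adjustment over 259 miRNAs). It ranked 73 from the highest log2 fold change of the 259 miRNAs, whose median was 0.05. Of these 259 miRNAs, 0 passed an adjusted p under 0.05, or 0.0%, against 23, or 8.88%, at an unadjusted p under 0.05. With DESeq2's Wald test 8 miRNAs passed, or 5.41% of those given an adjusted p, and miR-21a-5p was not among them, with an adjusted p of 0.675.

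**Figure D1:**
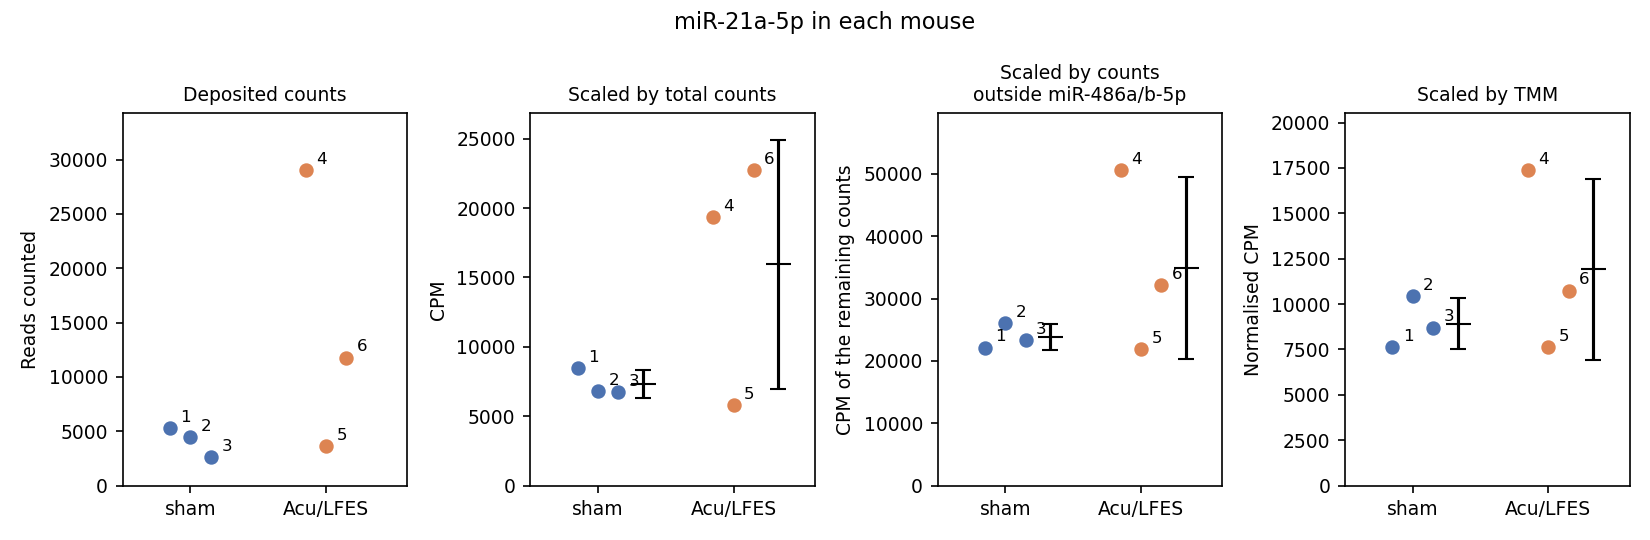
miR-21a-5p in each mouse as deposited counts and on 3 CPM scales (vertical axes from 0), with sham mice in blue, Acu/LFES mice in orange, mouse numbers beside the points, and black bars for the mean ± SD of 3 mice. Mouse 5 stays with or below the sham mice on every scale, and mouse 6 is the highest by total counts (22749 CPM) but close to the sham mice by TMM (10742 CPM).

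The Acu/LFES mice differed widely among themselves, whereas the sham mice lay close together. As a share of all counts, miR-21a-5p took 0.848%, 0.679% and 0.672% in sham animals, against 1.93%, 0.580% and 2.27% after Acu/LFES. Mice 4 and 6 were above every sham mouse and mouse 5 was below every sham mouse (exact permutation test, two-sided, p = 0.4, adjusted p = 0.457 over the 8 values tested in this way). Outside the miR-486 rows the share was 2.21%, 2.61% and 2.33% in sham animals, against 5.07%, 2.19% and 3.21% after Acu/LFES (exact permutation test, two-sided, p = 0.4, adjusted p = 0.457). With 3 mice against 3, such a test cannot go below 0.1. Without Acu/LFES mouse 4 the log2 fold change was 0.05 (unadjusted p = 0.842, adjusted p = 0.999 in edgeR's test). The median of all miRNAs in that fit was also 0.05. Without Acu/LFES mouse 5 the log2 fold change of miR-21a-5p was 0.70 (unadjusted p = 0.0375, adjusted p = 0.403 in edgeR's test). By total counts the log2 fold change was 1.12 (adjusted p = 0.481 in edgeR's test), where the median of all miRNAs also rose to 0.67.

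**Figure D2:**
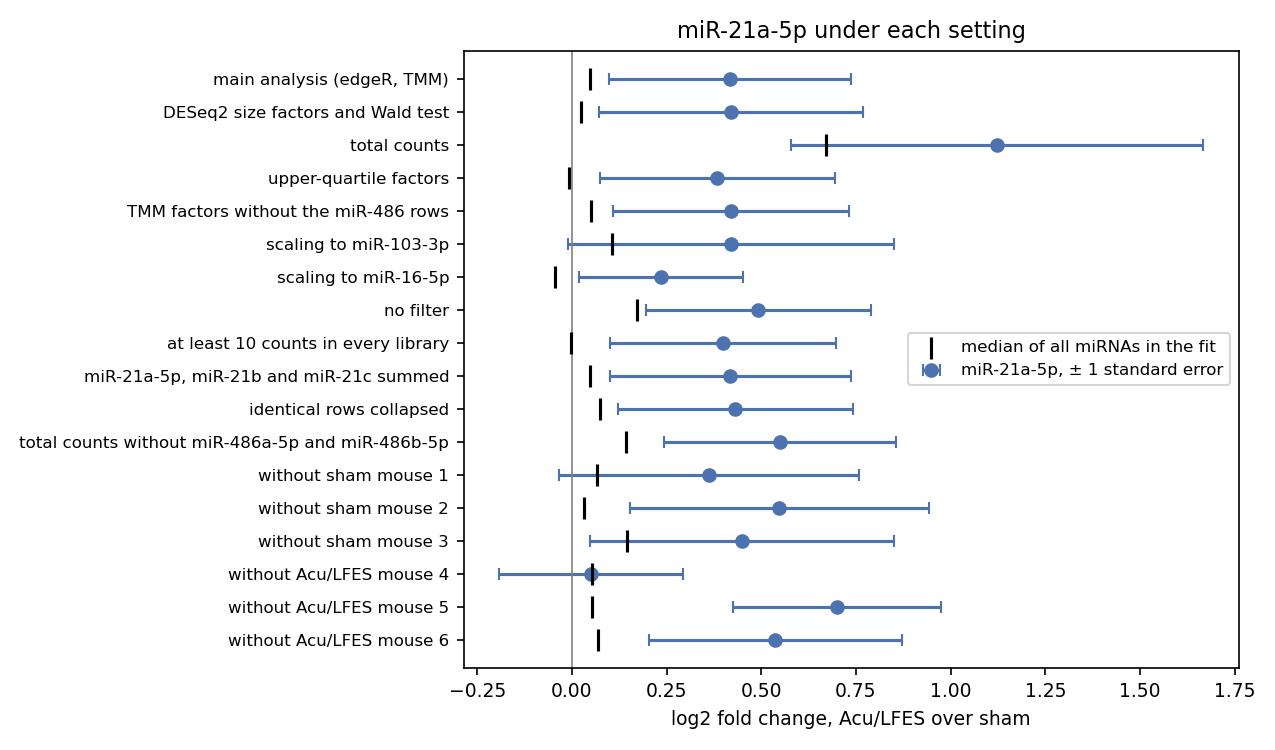
Log2 fold change of miR-21a-5p, Acu/LFES over sham (horizontal axis), in the main analysis and under each other setting (vertical axis), as points with bars of 1 standard error, with a black tick for the median of all miRNAs in the same fit. All points are above 0, and they reach from 0.05 without mouse 4 to 1.12 by total counts. The median tick is also at 0.05 without mouse 4, and it moves to 0.67 by total counts.

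Ratios within a library need no scaling. For each count of miR-16-5p, a miRNA of red cells and many other cells that is often used as a serum reference, there were 1.06, 1.29 and 1.15 counts of miR-21a-5p in sham animals, against 1.61, 1.19 and 1.31 after Acu/LFES. This ratio stayed within a narrow range in all 6 mice and the groups overlapped (exact permutation test on the log2 ratio, two-sided, p = 0.2, adjusted p = 0.4). For each count of miR-103-3p, another reference, there were 10.5, 7.62 and 16.1 counts of miR-21a-5p in sham animals, against 16.8, 12.4 and 16.6 after Acu/LFES. The sham mice spread more widely than the Acu/LFES mice here, and the groups again overlapped (exact permutation test on the log2 ratio, two-sided, p = 0.2, adjusted p = 0.4).

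miR-21a-3p, the passenger strand of the same hairpin, was all but absent. It had 0 counts in sham mice 1, 2 and 3 and in Acu/LFES mice 4 and 5, and 1 count in Acu/LFES mouse 6. Over the 6 mice this is 1 of 56895 counts on both arms, or 0.00176% (exact 95% binomial interval 4.45e-05 to 0.00979%). Taking 3 counts as the most that a count of 0 allows, 0 of 29061 counts in mouse 4, the deepest library, allow a share of up to 0.0103%, and 0 of 2632 in mouse 3, the shallowest, allow up to 0.114% (the exact 95% intervals reach 0.0127% and 0.140%). These intervals and limits cover counting error only, since reads copied by PCR are not independent molecules. Among the 70 hairpins with both arms listed and at least 1000 counts, the less counted arm took a median of 0.879% of the counts, 8 had it at 0, and miR-21a ranked 9 from the most one-sided. One-sided arms were thus common in these libraries, with 40 of the 70 hairpins under 1%. The difference of miR-21a-3p between the groups was not detectable at this depth.

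miR-21c was not detected. It had 0 counts in every mouse, beside 56894 counts of miR-21a-5p, which allows up to 0.00527% of the counts of both rows by the same 3 counts (the exact 95% interval reaches 0.00648%). miR-590-5p, which is placed in the same seed family as miR-21a-5p and was named after its counts were seen, also had 0 counts in every mouse. Its sequence was not found in the RefSeq table, so its seed was not checked.

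The miR-21b row held very few counts, over the 3 counts taken here as the least that shows a miRNA in the Acu/LFES mice and at or under them in the sham mice. How many mismatches the counting allowed and how it treated reads that fit several miRNAs are not given in the sources used here, so whether these counts are miR-21b or misread miR-21a-5p cannot be told apart, and every value below is of the row. It had 2, 3 and 2 counts in sham animals, against 19, 5 and 13 after Acu/LFES. In normalised CPM these are 2.88, 6.998 and 6.61 in sham animals, against 11.4, 10.4 and 11.9 after Acu/LFES. Every Acu/LFES mouse was above every sham mouse, also by total counts, where the sham mice had 3.20, 4.55 and 5.11 CPM and the Acu/LFES mice 12.6, 7.92 and 25.1 CPM (exact permutation test, two-sided, p = 0.1 and adjusted p = 0.4 on either scale, where 0.1 is the smallest p possible). Of the 259 miRNAs tested, 44, or 17.0%, did not overlap between the groups in normalised CPM, so such a pattern was common. miR-21b is not among these 259, and no such share was taken by total counts. On that scale most miRNAs moved up, with the middle log2 fold change at 0.67 against 0.05 in the main fit. There 23 were higher and 0 lower at an unadjusted p under 0.05 in edgeR's test. The separation by total counts is therefore not a second, independent sign of a rise. The sham counts of miR-21b all lie at or under the limit of 3 counts, and libraries of different depth differ in how finely they resolve such a level. Summed over the mice of a group, 37 counts in Acu/LFES mice against 7 in sham mice gave a ratio of 2.32 in normalised libraries, with an exact 95% interval of 1.02 to 6.16 that covers counting error only and not the spread between mice. miR-21b had too few counts for edgeR's default filter. Without that filter its log2 fold change was 0.83 with a standard error of 1.51 (adjusted p = 0.761 in edgeR's test).

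Beside the miR-21a-5p row, the miR-21b row was small in every library. Per 10000 counts of both rows it took 3.77, 6.70 and 7.59 in sham animals, against 6.53, 13.6 and 11.03 after Acu/LFES. Mouse 4, the deepest library, had the most counts in both rows, and its share lay within the range of the sham mice. In normalised CPM the miR-21b row was highest in mouse 6. The exact 95% intervals of all 6 mice overlapped, with 5.88 to 10.2 per 10000 inside every one of them, and the value over all mice was 7.73 per 10000 (44 of 56938 counts). At that value, 4.09, 3.46, 2.04, 22.5, 2.83 and 9.11 counts would have fallen on miR-21b in mice 1 to 6, against the 2, 3, 2, 19, 5 and 13 observed. The log2 ratio of miR-21a-5p to miR-21b, with 0.5 added to both counts, was 11.05, 10.32 and 10.04 in sham animals, against 10.54, 9.38 and 9.77 after Acu/LFES. The groups overlapped, and their means differed by -0.57 (exact permutation test, two-sided, p = 0.3, adjusted p = 0.457). With 3 mice against 3 this test cannot go below 0.1, so it could not have shown a different response of the look-alike row at any depth. The overlap of the intervals decides little either, since at 2 or 3 counts they are wide, as with 0.92 to 27.4 per 10000 in sham mouse 3. A correlation of the related rows with miR-21a-5p was not computed, since it was to be given only for rows with over 3 counts in at least 4 mice, and miR-21b had them in 3, miR-21a-3p and miR-21c in 0. With miR-21a-5p, miR-21b and miR-21c added into a single row, the log2 fold change was 0.42, as for miR-21a-5p alone.

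**Figure D3:**
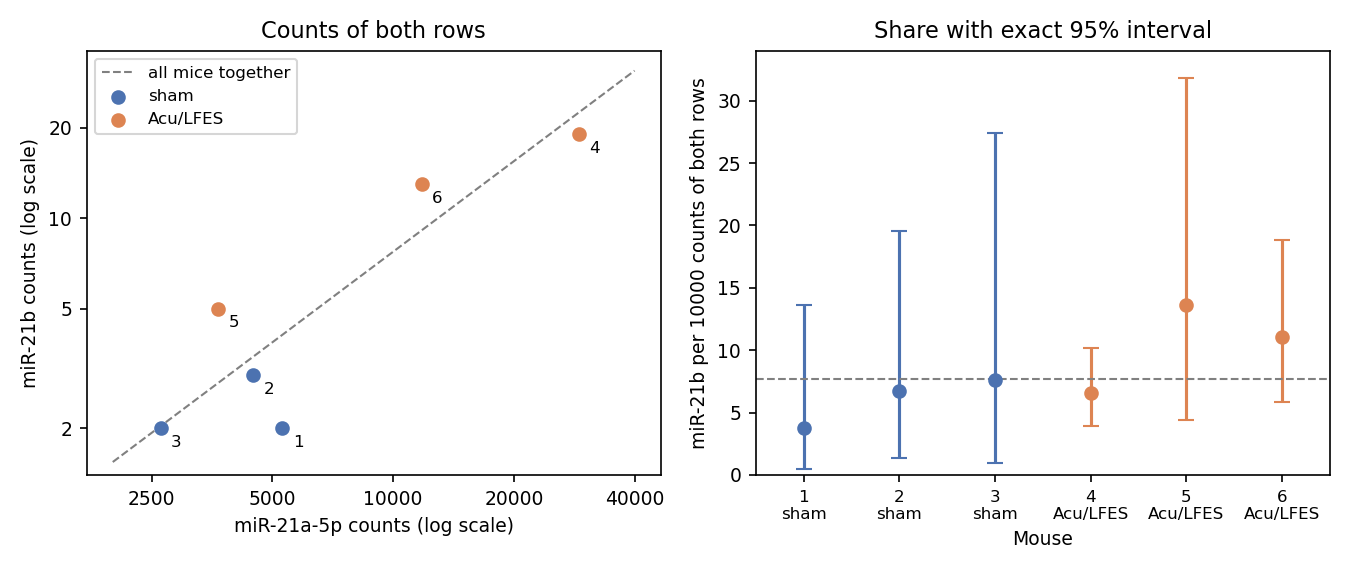
Left, miR-21b counts against miR-21a-5p counts in each mouse on log scales, with mouse numbers and a dashed line at the share over all mice. Right, miR-21b per 10000 counts of both rows in each mouse, with exact 95% binomial intervals (counting error only) and the same dashed line at 7.73, which crosses all 6 intervals.

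The miRNAs whose pattern was most like that of miR-21a-5p were miR-16-5p, miR-30e-5p and miR-140-5p. Over the 6 mice, Pearson's r of log2 normalised CPM was 0.97, 0.94 and 0.90, the highest of 258 miRNAs compared, and the values share libraries and scaling factors. Spearman's rho was 1.00, 1.00 and 0.94. Without mice 4 and 5, the farthest from the median of miR-21a-5p, r was 1.00, 0.80 and 0.95 over 4 mice. miR-16-5p, of the tumour-suppressive miR-15/16 family, was 7204, 8113 and 7567 normalised CPM in sham animals, against 10793, 6398 and 8193 after Acu/LFES. It was highest in mouse 4 and lowest in mouse 5, as miR-21a-5p was. miR-30e-5p, of the miR-30 family, was 1289, 1435 and 1299 normalised CPM in sham animals, against 2189, 1142 and 1810 after Acu/LFES. Its ratio to miR-21a-5p varied little, with 5.93 to 7.95 counts of miR-21a-5p for each of its own. miR-140-5p, known for its role in cartilage, was 222, 320 and 231 normalised CPM in sham animals, against 355, 198 and 302 after Acu/LFES.

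**Figure D4:**
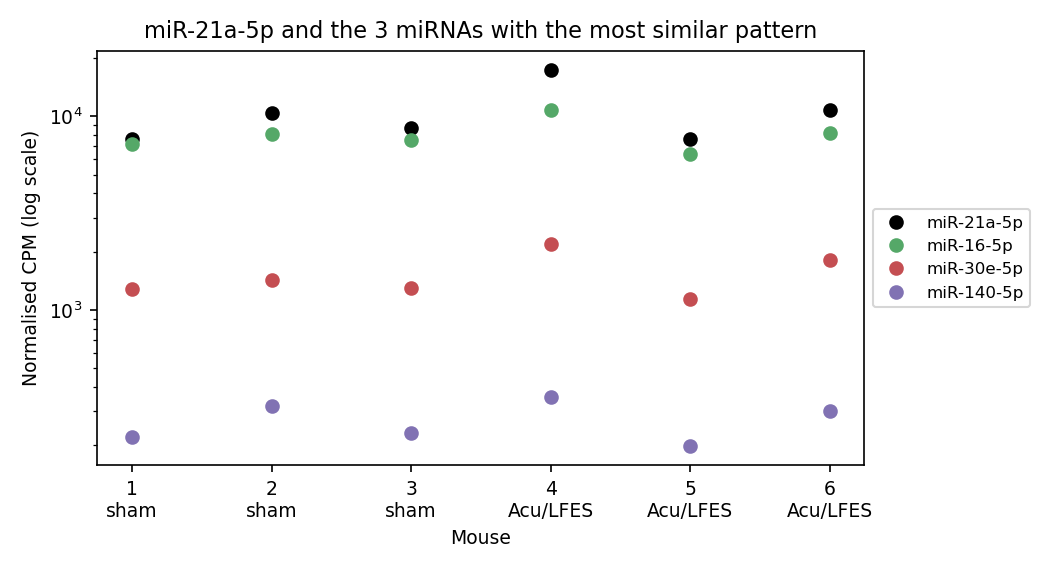
Normalised CPM (log scale) of miR-21a-5p and of miR-16-5p, miR-30e-5p and miR-140-5p in each mouse. All 4 are highest in Acu/LFES mouse 4 and lowest in Acu/LFES mouse 5, although mice 1 and 5 lie close in miR-21a-5p, at 7636 and 7610.

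Other miRNAs linked to inflammation, not all of them known to be induced by it, did not pass the test either. Of 9 miRNAs listed, 6 had enough counts, and 0 were higher or lower at an unadjusted p under 0.05, against 5.79% higher and 3.09% lower among all miRNAs tested. Their median log2 fold change was 0.20, beside 0.05 over all miRNAs tested. miR-146b-5p, which like miR-146a-5p restrains innate immune signalling, was 198, 81.6 and 95.8 normalised CPM in sham animals, against 218, 166 and 237 after Acu/LFES, a log2 fold change of 0.71 with a standard error of 0.45. Mouse 5 was below sham mouse 1, so the groups overlapped, and without sham mouse 1 the log2 fold change was 1.24 (unadjusted p = 0.0252, adjusted p = 0.240 in edgeR's test). miR-155-5p, a miRNA of activated immune cells, was 445, 504 and 132.2 normalised CPM in sham animals, against 237, 93.6 and 287 after Acu/LFES, a log2 fold change of -0.80 with a standard error of 0.55. Both groups spread widely and overlapped, and with each mouse left out the log2 fold change lay between -1.14 and -0.41. The value of -1.14 was without sham mouse 3 (unadjusted p = 0.0336, adjusted p = 0.581 in edgeR's test). The log2 fold change was -0.38 for miR-146a-5p, 0.41 for miR-132-3p, which is induced by neuronal activity and immune signals, 0.32 for miR-125b-5p, and 0.07 for miR-223-3p, the main miRNA of neutrophils. By total counts the values of miR-155-5p and miR-146a-5p were 0.02 and 0.30. The adjusted p of these 6 was 0.715 or higher in edgeR's quasi-likelihood test. miR-212-3p had between 0 and 12 counts in a mouse, miR-147-3p between 0 and 7, and miR-9-5p had 17 counts in mouse 4 and 0 in the others.

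Markers of blood cells, liver and muscle, whose miRNAs reach serum, overlapped between the groups as summed lists. The summed level of the 4 white-cell and platelet markers was 6278 to 7325 normalised CPM in sham mice, against 4775 to 6816 with Acu/LFES. That of the 4 muscle markers was 10092 to 11258 in sham mice, against 7475 to 12447 with Acu/LFES. Per the study, serum was drawn by heart puncture. Whether the muscle miRNAs came from skeletal or heart muscle was not tested. The 2 liver markers reached 10262 to 23624 in sham mice, against 4024 to 17869 with Acu/LFES, lowest in mouse 4, where miR-21a-5p was highest. The 5 red-cell markers, which miR-486a-5p and miR-486b-5p dominate, reached 556877 to 1138430 in sham mice, against 138817 to 965923 with Acu/LFES, lowest in mouse 6. The other tested red-cell markers did not share that order. miR-451a had a log2 fold change of 0.34 (SE 0.34) and miR-144-5p one of 0.53 (SE 0.56), against -0.66 (SE 0.64) for miR-486a-5p, all with an adjusted p of 0.799 in edgeR's test. miR-451a and miR-144-5p were highest in mouse 4, as miR-21a-5p was, at 1903 and 455 normalised CPM. Their Pearson r with miR-21a-5p over the 6 mice was 0.80 and 0.82, and their Spearman's rho 0.54 and 0.77. Pearson's r was -0.24 for miR-486a-5p and miR-486b-5p, -0.66 for miR-122-5p and -0.88 for miR-192-5p. It was 0.75, -0.28 and -0.12 for miR-1a-3p, miR-133a-3p and miR-206-3p. For miR-223-3p, miR-142a-3p, miR-142a-5p and miR-150-5p it was 0.29, 0.16, 0.10 and -0.57. Of the 15 marker rows, 0 were at 0 in every mouse, but miR-144-3p and miR-499-5p had counts only in Acu/LFES mice 4 and 6. These were 3 and 1 counts for miR-144-3p and 51 and 20 for miR-499-5p. Of the 13 marker rows tested, 0 had an adjusted p under 0.05 in edgeR's test. The part of these cells in the level of miR-21a-5p was not tested.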

How the data were processed

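The values are raw counts of reads for each mature miRNA, which the authors placed in a single table with 1 column per mouse. Per the labels, the submitters' processing notes name bcl2fastq 1, cutadapt 1.6 and DESeq2 1.26.0. The aligner, the miRNA annotation and the mismatches allowed are not given in the sources used here. Columns were matched to mice by title, and groups were taken from the treatment label. Mouse numbers are not shared between groups.

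Differences between groups were fitted on the whole table of deposited counts with the quasi-likelihood test of edgeR 4.0.16 (R 4.3.3) and Benjamini-Hochberg adjustment. Rows with low counts were removed by filterByExpr, and libraries were scaled by TMM. Of 954 rows with a count, 259 were tested. Standard errors were taken from the F statistic. For single values the exact permutation test of scipy 1.17.1 was used, two-sided. The fit was tested on simulated counts that had the same dispersion for every miRNA. They lacked the differences in composition seen between mice of a group, so that test does not check the scaling. Intervals are exact (Clopper-Pearson). The text names the 4 members, rows sharing a member's seed, and the 3 tested miRNAs with the highest Pearson r with miR-21a-5p. It also names a list of 9 miRNAs linked to inflammation and the cell markers. The members and lists were chosen with earlier results of these data known. Alternatives were DESeq2 1.42.0, other scalings and filters, summed look-alike rows, another value added to the counts of a ratio, a denominator without miR-486, and each mouse left out in turn, and 2 more were chosen after seeing the data. Sequences are from RefSeq on GRCm38.p6, where 1623 of 1915 mouse rows matched by name.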

Additional observations from a re-analysis of the deposited data

How the results depend on the processing

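No paired analysis was possible because the mouse numbers 1 to 6 are not shared between the groups. The log2 fold change of miR-21a-5p stayed positive and short of an adjusted p under 0.05 in every setting run. It ran from 0.23 with scaling to miR-16-5p to 1.12 with total counts (adjusted p from 0.481 to 0.995 in edgeR's test or DESeq2's). When each mouse was left out in turn, it ran from 0.05 to 0.70. The value of 0.05, without Acu/LFES mouse 4, was no higher than the median of all miRNAs in that fit, also 0.05. DESeq2 gave 8 miRNAs with an adjusted p under 0.05 against 0 in edgeR's test, and the cause was not tested. Leaving out any mouse left the count of edgeR's test at 0, and DESeq2 was not run with a mouse left out. The group difference of the log2 ratio of miR-21a-5p to miR-21b was -0.57, -0.41 with 1 added to both counts, and from -0.90 to -0.28 with each mouse left out. That of the share of miR-21a-5p was 0.863 percentage points, 1.10 outside the miR-486 rows, and from 0.523 to 1.37 with each mouse left out. The alternatives were also run for the 6 tested miRNAs linked to inflammation and the 3 most like miR-21a-5p. Here 9 values changed direction, and the others kept direction and side of the threshold. With total counts these were 0.30 for miR-146a-5p and 0.024 for miR-155-5p, and with scaling to miR-16-5p -0.0015 for miR-140-5p and -0.045 for miR-223-3p. Without sham mouse 2, miR-132-3p was at -0.019. Without sham mouse 3, miR-146a-5p was at 0.015 and miR-223-3p at -0.15. Without Acu/LFES mouse 4, miR-140-5p was at -0.029 and miR-16-5p at -0.061. Over all mice left out, the range was -0.019 to 1.03 for miR-132-3p, -0.029 to 0.39 for miR-140-5p, -0.71 to 0.015 for miR-146a-5p, -0.061 to 0.36 for miR-16-5p, -0.15 to 0.32 for miR-223-3p, 0.48 to 1.24 for miR-146b-5p and -1.14 to -0.41 for miR-155-5p. The correlation of the related rows and its alternatives were not run for want of counts. Collapsing identical rows and scaling by totals without miR-486, both chosen after seeing the data, gave 0.43 and 0.55 for miR-21a-5p.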
